A study of Mus musculus with 8 samples.

Results

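The testis-specific serine kinases are the products of Tssk1, Tssk2, Tssk3, Tssk4 and Tssk6, and these 5 genes were followed here through every probe set whose single gene symbol was one of them. There were 8 such probe sets, 3 for Tssk4, 2 for Tssk3 and 1 each for Tssk1, Tssk2 and Tssk6, and the 5 genes stand among 18194 genes on the array. Each sample was the whole testis RNA of male mice, taken at postnatal day 28 and hybridised to 1 oligonucleotide array, on which a probe set is a group of short probes for 1 transcript. All 8 samples carried the floxed Dmrt1 allele in 2 copies on a mixed C57BL6/6J and 129 background. The control group had no Cre (n = 2), a mutant group carried Dhh-cre (n = 2) and another carried SF1-cre, driven by the promoter of Nr5a1 (n = 4). The submitters call both promoters specific to Sertoli cells, the somatic cells that nurse germ cells in the seminiferous tubule. The comparisons ask how the kinase transcripts differ when Dmrt1, a transcription factor gene, is deleted with either driver. No label says whether replicates came from separate animals, so each p-value measures the spread between these samples.

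These kinases belong to the calcium/calmodulin-dependent kinase group and are made mainly in spermatids, the haploid germ cells that follow meiosis. Male mice lacking Tssk1 and Tssk2 together, or lacking Tssk6, are sterile, and the enzymes act in the reshaping of the spermatid into a sperm. Tssk1 and Tssk2 phosphorylate the substrate protein Tsks, Tssk4 phosphorylates the tail protein Odf2, and Tssk6 is needed for the packing of sperm DNA.

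The 5 members have separate start sites, and the 100 bases before each are shown because all 5 genes were low together in the mutants. Tssk1 and Tssk2 stand side by side in the RefSeq gene table, with 0 genes between them. Sequences are from RefSeq on GRCm38.p6, written from 5′ to 3′ on the strand of the gene. Capitals in the first pair mark runs of at least 8 bases shared by Tssk1 and Tssk2, and capitals in the others mark TGACG or CCAAT on either strand. The windows are chr16:17894103-17894202 (+) for Tssk1, chr16:17898537-17898636 (+) for Tssk2, chr4:129490771-129490870 (-) for Tssk3, chr14:55650084-55650183 (+) for Tssk4 and chr8:69902084-69902183 (+) for Tssk6.
Tssk1: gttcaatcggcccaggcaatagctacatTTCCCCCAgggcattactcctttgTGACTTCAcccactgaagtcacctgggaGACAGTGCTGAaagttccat
Tssk2: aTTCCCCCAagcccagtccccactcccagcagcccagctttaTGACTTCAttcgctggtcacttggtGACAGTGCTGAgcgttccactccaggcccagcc
Tssk3: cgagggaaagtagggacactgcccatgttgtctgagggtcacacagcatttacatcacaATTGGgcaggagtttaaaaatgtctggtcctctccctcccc
Tssk4: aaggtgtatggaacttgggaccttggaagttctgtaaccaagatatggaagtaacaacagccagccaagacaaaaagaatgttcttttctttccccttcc
Tssk6: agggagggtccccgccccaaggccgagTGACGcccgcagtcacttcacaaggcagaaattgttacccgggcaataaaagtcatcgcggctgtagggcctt

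The longest run shared by the neighbours Tssk1 and Tssk2, GACAGTGCTGA, begins 20 bases before the start of Tssk1 and 33 before that of Tssk2, and stands in that orientation in 4 of 32851 promoter windows of 250 bases. It was picked by comparing Tssk1 with Tssk2, whose windows are among the 4, so its rarity is no test. Their other shared runs are each of 8 bases. TTCCCCCA begins 72 bases before Tssk1 and 99 before Tssk2, and CTTCTAGG 114 and 135. TGACTTCA begins 48 bases before Tssk1 and 58 before Tssk2, and is also found 35 bases before Tssk1 on the other strand. On either strand it occurs in 1.31% of windows, and it was searched after these sequences were seen. The full cAMP response element TGACGTCA, a site of the spermatid regulator Crem, was found in 0 of the 5 windows of 250 bases and in 1.55% of all. Its first part, TGACG, which lies within that element, was found only in Tssk6, 73 bases before the start, against 17.8% of all windows. CCAAT was found in Tssk3, 41 bases before the start on the other strand, and in Tssk4, 113 bases before it, against 33.8% of all. These matches describe letters in a window and do not show binding.

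Before the members, 3 facts of the arrays bear on every value. Dmrt1 itself read 137 to 237 intensity units in Sf1-Cre, 361 and 433 without Cre, and 1377 and 979 where the label is Dhh-Cre. It was lower in Sf1-Cre by limma (-1.09, adjusted p = 0.00375) and higher in Dhh-Cre (1.55, adjusted p = 0.0012; 0.22, adjusted p = 0.479 with each array centred on housekeeping genes), so each direction that involves Dhh-Cre rests on its label. Germ cells also express Dmrt1, and where its probes lie relative to the floxed stretch was not examined. Spink8, a gene of the epididymis, reached log2 10 or above in 3 arrays, Dhh-Cre replicate 1 and Sf1-Cre replicates 1 and 3. The 3' to 5' signal ratio of Actb, a sign of RNA quality, ranged from 9.45 to 13.6 over the 6 mutant arrays, against 4.44 and 4.89 for the controls. The same ratio of Gapdh was not higher in the mutants, at 1.67 to 3.30 against 2.96 and 3.58. The part of the Spink8 arrays and of RNA quality in the results was not tested, beyond the fits without the Spink8 arrays given below.

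All 5 Tssk transcripts were lower in every mutant array than in every control array. Tssk1, 1 of the neighbouring pair, gave 2955 and 3199.6 units in the controls, 9.89 and 28.8 in Dhh-Cre, and 196, 105, 84.6 and 54.1 in Sf1-Cre. The lowest control was far above the highest mutant, and every Sf1-Cre array lay above both Dhh-Cre arrays. Tssk2, its partner in binding Tsks, gave 4358 and 3741 units in the controls, 12.5 and 48.0 in Dhh-Cre, and 204, 92.7, 55.8 and 30.9 in Sf1-Cre. Here the mutant groups overlapped, since the lowest Sf1-Cre array lay between the Dhh-Cre arrays.

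Tssk3, a kinase of later spermatids, gave 1489 and 1511 units in the controls, 7.09 and 10.9 in Dhh-Cre, and 28.7, 17.4, 14.4 and 13.0 in Sf1-Cre. An intensity of 16, log2 4, is used as the floor under which a level is not read, and Tssk3 was under it in both Dhh-Cre arrays and in 2 of the Sf1-Cre arrays, although all Sf1-Cre arrays lay above both Dhh-Cre arrays. Tssk4, the kinase of Odf2, gave 2093 and 1991 units in the controls, 9.66 and 16.8 in Dhh-Cre, and 227, 109, 71.5 and 52.5 in Sf1-Cre. All Sf1-Cre arrays were above both Dhh-Cre arrays for this gene. Tssk6, the kinase of sperm DNA packing, gave 2122 and 1613 units in the controls, 8.75 and 13.7 in Dhh-Cre, and 7.41, 6.73, 7.76 and 7.04 in Sf1-Cre. All 6 mutant arrays were under the floor, so Tssk6 entered the test only through the controls and had to be lower in the mutants. Its Sf1-Cre and Dhh-Cre arrays have no order.

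**Figure D1:**
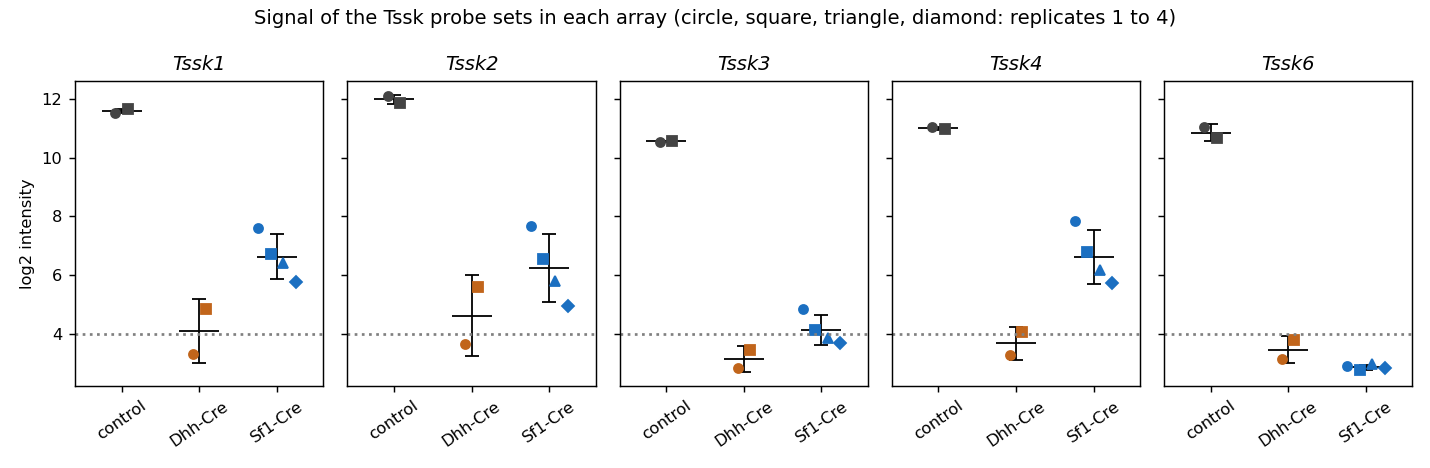
Log2 intensity (vertical axis) of the probe set used for each Tssk gene in the 2 control, 2 Dhh-Cre and 4 Sf1-Cre arrays; long bars are group means, whiskers SD, and the dotted line is the log2 4 floor. Control means lie between log2 10.55 and 11.98, and all mutant arrays lie below every control array for all 5 genes.

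Against the controls, all 5 Tssk genes fell in Sf1-Cre. The test was limma across 13802 genes, with p adjusted by Benjamini and Hochberg, errors as SE, and an adjusted p under 0.05 as passing. Tssk4 fell by 4.38 ± 0.54 on the log2 scale (20.8-fold, adjusted p = 0.000135), from 10.99 ± 0.05 (SD, n = 2) to 6.62 ± 0.91 (SD, n = 4). Tssk1 fell by 4.96 ± 0.55 (31.2-fold, adjusted p = 7.73e-05). Tssk2 fell by 5.74 ± 0.77 (53.4-fold, adjusted p = 0.000221). Tssk3 fell by 6.42 ± 0.33 (85.8-fold, adjusted p = 1.69e-06). Tssk6 was at least 115.6-fold lower, since its Sf1-Cre mean was under the floor (adjusted p = 3.39e-07). Having passed the filter only through the controls, it had to be lower. Tssk4 and Tssk1 thus had the smallest falls of the 5.

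The background to that count is broad. In Sf1-Cre, 79.8% of all tested genes passed, 33.2% as lower and 46.6% as higher, and the groups did not overlap with Sf1-Cre lower for 36.0%. A fall of log2 4 or more, which all 5 members showed, was seen in 5.48%. The median of the 5 was -5.74, against 0.34 over all genes tested. Since these are whole testes, fewer spermatids and less RNA per spermatid cannot be told apart.

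In Dhh-Cre the 5 genes also all fell, and their fitted changes lay close together, from -7.51 to -7.32 on the log2 scale. Tssk1 fell by 7.51 on the log2 scale (adjusted p = 2.16e-05) and Tssk2 fell by 7.37 (adjusted p = 0.000122). Replicate 1 of both was under the floor, and with values under it set to it the changes were -7.16 and -7.19. The other 3 had Dhh-Cre means under the floor and were at least 93.8-fold lower for Tssk3 (adjusted p = 3.16e-06), 127.6-fold for Tssk4 (adjusted p = 2.16e-05) and 115.6-fold for Tssk6 (adjusted p = 1.23e-06). With 3 of 5 means under the floor, the closeness of the fitted values says little of the true sizes. In this comparison 79.6% of all genes passed, 30.5% as lower and 49.1% as higher, the groups did not overlap with Dhh-Cre lower for 35.1%, and 9.43% were lower by log2 4 or more. The median of the 5 was -7.40, the fitted value of Tssk6 with its mean under the floor, against 0.54 over all genes. Tssk6 had to be lower here too, since only the controls took it past the filter. Both comparisons use the same 2 control arrays, so they are not independent of each other.

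**Figure D2:**
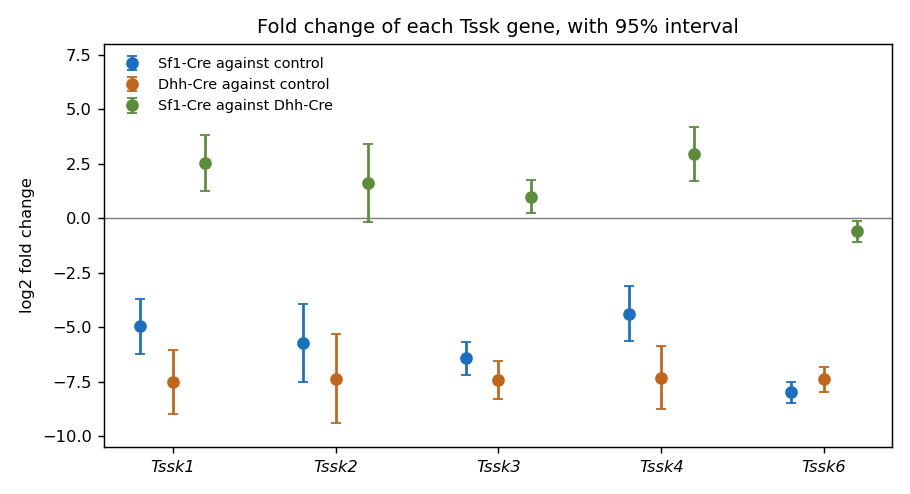
Log2 fold change (vertical axis) of each Tssk gene in the 3 comparisons, with the 95% interval of the limma fit as whiskers. In Sf1-Cre the fitted changes run from -4.38 to -8.00 and in Dhh-Cre from -7.32 to -7.51. The -8.00 is Tssk6, with its Sf1-Cre mean under the floor, and is -6.85 with values under log2 4 set to 4. In Dhh-Cre the means of Tssk3, Tssk4 and Tssk6 are under the floor, so their sizes are not read. The difference between the lines is positive for Tssk1, Tssk2, Tssk3 and Tssk4. The negative value of Tssk6 comes from means that are both under the floor and have no order.

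The mutant lines were then compared with each other. Tssk1 was 5.83-fold higher in Sf1-Cre than in Dhh-Cre (2.54 ± 0.55, adjusted p = 0.0149), and Tssk4 at least 6.13-fold higher (2.94 ± 0.54, adjusted p = 0.00796). Dhh-Cre replicate 1 was under the floor for both, so these sizes are uncertain. With values under log2 4 set to 4, limma gave 2.20 for Tssk1 (adjusted p = 0.0209) and 2.58 for Tssk4 (adjusted p = 0.0157). The others did not pass. Tssk2 differed by 1.63 (95% interval -0.15 to 3.41, adjusted p = 0.161), Tssk3 by 0.99 (0.23 to 1.75, adjusted p = 0.0618) and Tssk6 by -0.60 (-1.08 to -0.11, adjusted p = 0.0733), the last with both means under the floor. The 2 higher members of 5 stand against 24.6% of all genes that passed, 12.9% as higher and 11.8% as lower. Without overlap, Sf1-Cre was higher for 3 members, against 24.5% of all genes, and lower for 1, Tssk6, against 23.2%. All mutant values of Tssk6 were under the floor, so its order is not read. For Tssk3 the Dhh-Cre values and some of the Sf1-Cre values were under it. The order of levels was therefore control, Sf1-Cre, Dhh-Cre for Tssk1 and Tssk4, while for Tssk2, Tssk3 and Tssk6 the mutant groups were not separated by the test. Without Dhh-Cre replicate 1, which had the lowest signal of Tssk1, Tssk2, Tssk3 and Tssk4 of all arrays, neither call held (Tssk1 1.77, adjusted p = 0.12; Tssk4 2.54, adjusted p = 0.0732), nor without the 3 arrays high in Spink8 (1.39, adjusted p = 0.128; 2.17, adjusted p = 0.0537). Sf1-Cre replicates 3 and 4 have no deposited values in exponent notation. Without them 4 members passed as higher, Tssk2 (2.49, adjusted p = 0.0391) and Tssk3 (1.34, adjusted p = 0.0248) among them. Over all 13802 genes, 2105 then passed as higher and 1630 as lower.

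Signal left over in the mutants was set against the control mean of each gene, as geometric means. In Sf1-Cre, Tssk4 kept 2.57% to 11.1% of it, Tssk1 1.76% to 6.36%, Tssk2 0.765% to 5.06% and Tssk3 0.864% to 1.91%, while Tssk6 read 0.364% to 0.419%, under the floor. In Dhh-Cre the values were 0.309% to 1.19% over the 5 genes. Across the same arrays the median over 24 spermatid genes was 8.77%, 5.01%, 2.76% and 2.30% in Sf1-Cre and 0.675% and 2.98% in Dhh-Cre. Tssk4 lay above that median in each Sf1-Cre array, and the other 4 members lay below it in each. Shares that rest on intensities under the floor have no order.

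Among the 4 Sf1-Cre arrays, replicate 1 was highest and replicate 4 lowest for Tssk1, Tssk2, Tssk3 and Tssk4. The ratio of replicate 1 to replicate 4 was 3.62 for Tssk1, 6.62 for Tssk2 and 4.32 for Tssk4. Replicate 4 of Tssk3 and all Sf1-Cre arrays of Tssk6 were under the floor, so no ratio is given for them. The same 2 extremes were shown by 21 of 24 spermatid genes and 14 of 16 spermatocyte genes, against 21.5% of all genes tested. The counts were 9 of 16 other testis kinase genes and 5 of 9 genes whose products act with the Tssk kinases. They were 4 of 11 Sertoli, 3 of 14 spermatogonial, 1 of 14 AMPK-related kinase and 0 of 9 macrophage genes. In Dhh-Cre, replicate 2 was above the floor and replicate 1 under it for Tssk1, Tssk2 and Tssk4, while Tssk3 and Tssk6 were under it in both and have no order. Replicate 2 read above replicate 1 for all 24 spermatid genes, values under the floor included, for 13 of 16 spermatocyte and 5 of 5 Leydig genes, and for 50.5% of all genes. The summed intensity of the spermatid list was 17310.7 in Sf1-Cre replicate 1 and 4627 in replicate 4, and 2069 and 15526 in the Dhh-Cre arrays. Replicate 1 of each mutant group was also high in Spink8, and the part of this in the order was not tested. The pattern was noticed after the values were seen and is given as a description.

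**Figure D3:**
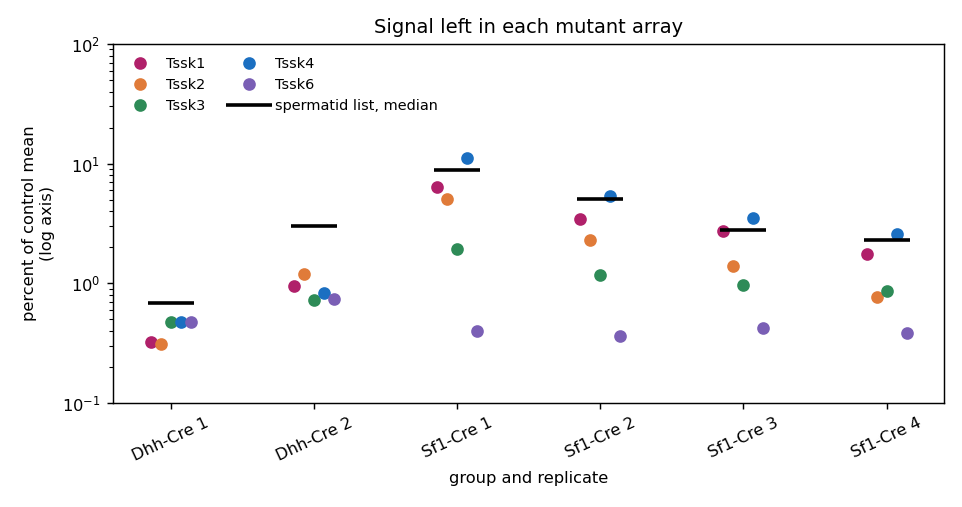
Percent of the control mean (vertical log axis) of each Tssk gene in the 2 Dhh-Cre and 4 Sf1-Cre arrays; the black bar is the median of 24 spermatid genes. Tssk4 reaches 11.1% in Sf1-Cre replicate 1, where Tssk6 is at 0.401%, and in the Dhh-Cre arrays all 5 genes lie between 0.309% and 1.19%.

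The remaining probe sets of the members were dim. The second of Tssk4 gave 49.7 and 59.9 units in the controls, 4.88 and 4.40 in Dhh-Cre and 9.79, 8.88, 6.16 and 10.02 in Sf1-Cre. It fell in both lines when all probe sets were fitted separately (-3.56, adjusted p = 8.46e-06; -2.67, adjusted p = 1.28e-05) and was higher in Sf1-Cre than Dhh-Cre by 0.88 (adjusted p = 0.0262), with both mutant groups under the floor. The third of Tssk4, at 2.06 to 2.69 units, and the second of Tssk3, at 4.97 to 9.47, were under the floor on all arrays and were not tested. In all, 6 of the 8 probe sets passed the filter, and 2 of these, for Tssk6 and the second of Tssk4, only through the controls. The probe set used for Tssk3 is of the type marked s by the manufacturer, whose probes can match more than 1 transcript. Whether Tssk1 and Tssk2, close relatives in sequence, share signal between their probe sets was not examined.

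Tssk5, the remaining family symbol on the array, is not among the 5 and was dim. It gave 47.0 and 44.2 units in the controls, 5.93 and 5.26 in Dhh-Cre and 6.11 to 9.84 in Sf1-Cre. All mutant arrays were under the floor, so it entered the test only through the controls and had to differ, and it was at least 2.85-fold lower in each line.

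Genes whose products act with these kinases moved less uniformly. Of 10 in the list, 9 were named on the array and tested, and Hsp90ab1 was not among them. In Sf1-Cre 6 fell and Creb1 rose, and in Dhh-Cre the same counts were found, with medians of -2.31 and -3.97. With each array centred on the median of 13 housekeeping genes, 8 fell in Sf1-Cre and 9 in Dhh-Cre, and none rose. Under that centring 8530 and 7524 of all 13802 genes passed as lower. The housekeeping genes themselves were mostly higher in the mutants before it. Tsks, the substrate of Tssk1 and Tssk2, gave 1164 and 1439 units in the controls and 8.13 to 16.0 in all mutant arrays, at least 80.9-fold lower in each line (adjusted p = 5.61e-07 in Sf1-Cre). With no mutant array above 16.0, Tsks entered the test through the controls and had to be lower. Odf2, the tail protein phosphorylated by Tssk4, fell 4.97-fold in Sf1-Cre and 21.5-fold in Dhh-Cre, and of its other probe sets a pair also fell (-2.96 and -4.97; -2.33 and -2.01) while another did not pass (-0.08 and 0.07). Spag16, an axoneme protein gene and substrate of Tssk2, fell 6.37-fold and 55.6-fold. Tsacc, the co-chaperone that links these kinases to heat shock protein 90, fell 1.98-fold and 5.99-fold.

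Other genes of this list also serve other cells. Pdpk1, whose kinase activates Tssk3, fell 25.7-fold in Sf1-Cre and 15.7-fold in Dhh-Cre by the probe set used, and by 0.73 and 0.56 on the log2 scale in another. Crem, the spermatid transcription factor gene, fell 6.69-fold and 58.1-fold by the probe set used, while another rose by 1.09 and 1.15 and the rest did not pass. Creb1, the related cAMP response factor gene, was higher by 1.17 and 0.84, with another probe set lower (-0.96 and -0.59), a further one higher (1.71 and 1.75), and under housekeeping centring its change was -0.21 and -0.49. Hsp90aa1 (-0.36 and -0.23) and Ppp1cc (-0.02 and -0.18), encoding a chaperone and a phosphatase subunit that bind the family, did not pass, and a further Ppp1cc probe set rose by 1.34 and 1.73. Between the lines, Tsacc, Odf2, Spag16 and Crem were higher in Sf1-Cre, by 1.60, 2.12, 3.12 and 3.12, and Pdpk1 was lower (-0.72). Without the 3 arrays high in Spink8, 1 partner gene passed as higher and 0 as lower. Tsks, at 0.28 with both means under the floor, did not pass.

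Other protein kinase genes of the testis were mostly lower too. Of 18 listed, 16 were tested, and 14 fell and 1 rose in Sf1-Cre (median -1.80), against 11 falls and 1 rise in Dhh-Cre (median -2.20). Camk4, a calmodulin-dependent kinase gene, fell 53.6-fold in Sf1-Cre and 53.9-fold in Dhh-Cre. Mak, the male germ cell-associated kinase gene, was at least 22.6-fold lower in each line. Both mutant means of Mak were under the floor, so passing the filter through the controls largely fixed its direction. Tesk2 and Tesk1, kinases of the actin regulator cofilin, fell 9.77-fold and 4.36-fold in Sf1-Cre and 19.1-fold and 5.66-fold in Dhh-Cre. Cdk16, a cyclin-dependent kinase gene, was the 1 gene that rose, by 1.13 in Sf1-Cre and 1.26 in Dhh-Cre, but another of its probe sets fell by 1.42 in Sf1-Cre, a further one rose by 2.27, and under housekeeping centring its change was -0.24 and -0.07. That centring left 15 genes of the list lower in each line and 0 higher, beside 8530 and 7524 of all 13802 genes passing as lower.

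Kinases of the AMPK-related family, close relatives with wider expression, showed no common direction. Of 18 listed, 14 were tested, and 5 rose and 5 fell in Sf1-Cre (median -0.08), 6 and 5 in Dhh-Cre (median 0.31). Centring on housekeeping genes turned these to 1 and 9, and 2 and 8. Mark1, a microtubule affinity kinase gene, was at least 31.1-fold higher in Sf1-Cre and at least 12.6-fold in Dhh-Cre, while Nim1k was at least 8.80-fold lower in each and Brsk1 fell 7.78-fold and 2.91-fold. Prkaa1, the AMPK catalytic subunit gene, was at least 2.50-fold higher in Sf1-Cre, and 0.26 and not passing under housekeeping centring. The control mean reached the floor for 12 of the 14, and not for Mark1 and Prkaa1. These genes passed the filter through the mutants and had to be higher there, and both are among the rises counted. Nim1k had both mutant means under the floor, so passing through the controls largely fixed its fall.

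**Figure D4:**
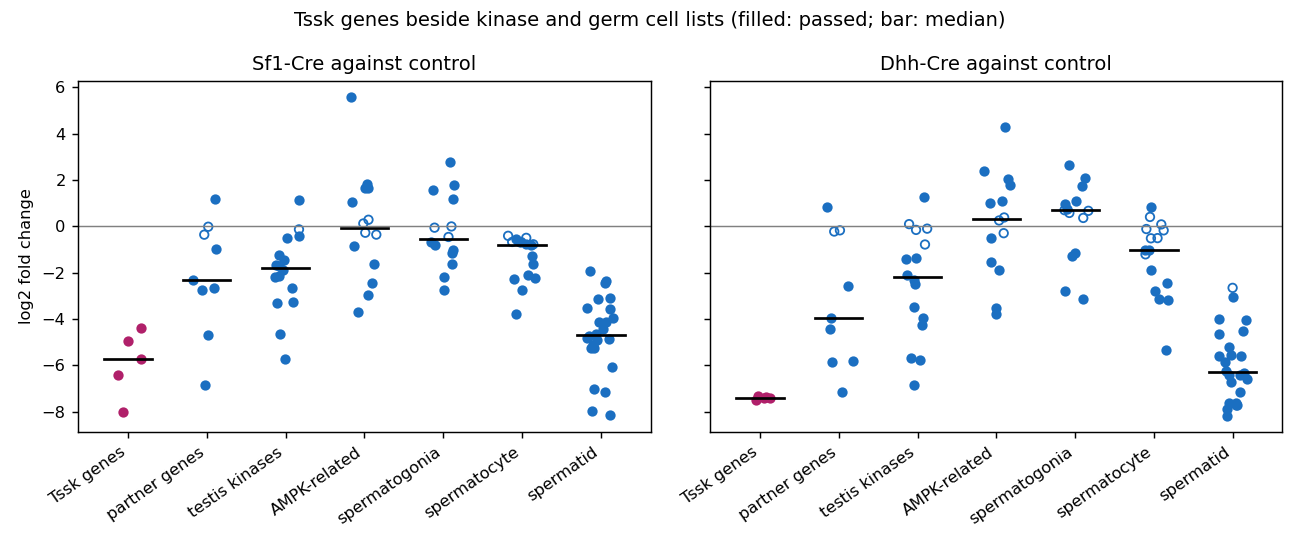
Log2 fold change (vertical axis) of the 5 Tssk genes and of the tested genes of 6 lists in Sf1-Cre (left) and Dhh-Cre (right) against control; filled points passed, open points did not, and bars are medians. The Tssk medians are -5.74 and -7.40, beside -4.70 and -6.28 for spermatid and -0.79 and -1.04 for spermatocyte genes.

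Germ cell stage markers give the setting of the Tssk values. All 24 spermatid genes fell in Sf1-Cre (median -4.70) and 23 in Dhh-Cre (median -6.28), with Prm1 not passing there. Spem1 was at least 188.8-fold lower in each line, Prm3 fell 131.5-fold in Sf1-Cre, and Actl7b fell 17.7-fold in Sf1-Cre and 84.7-fold in Dhh-Cre. Both mutant means of Spem1 were under the floor, so passing the filter through the controls largely fixed its direction. The summed spermatid intensity was 124291 and 133712 in the controls, 4627 to 17310.7 in Sf1-Cre and 2069 and 15526 in Dhh-Cre. In the spermatocyte list 11 of 16 genes fell in Sf1-Cre (median -0.79) and 8 fell and 1 rose in Dhh-Cre (median -1.04). Msh4, Ybx2 and Ccna1 fell by 3.77, 2.75 and 2.24 in Sf1-Cre and by 3.13, 3.19 and 5.34 in Dhh-Cre. Its sum was 40887 and 42117 in the controls, 14919 to 28970.3 in Sf1-Cre and 19103 and 22498 in Dhh-Cre. Of 14 tested spermatogonial genes, 4 rose and 7 fell in Sf1-Cre and 6 rose and 4 fell in Dhh-Cre. Under housekeeping centring 2 rose and 10 fell, and 2 rose and 7 fell. Foxo1, a spermatogonial transcription factor gene, rose by 1.77 and 1.76 (0.40 and 0.43 under that centring, the second not passing). Gfra1, the receptor gene of the stem cells, was at least 5.60-fold lower in both, and Kit, the gene of differentiating spermatogonia, rose in Sf1-Cre. The mutant means of Gfra1 were under the floor, so its direction was largely fixed by the filter too.

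Between the lines, the spermatid list held 8 genes higher and 1, Prm1, lower in Sf1-Cre (median 1.87). Pgk2, Acrv1, Zpbp and Catsper1 were higher by 3.09, 3.29, 2.16 and 2.93. Without the 3 arrays high in Spink8 the list held 1 higher and 4 lower (median 0.76). With all arrays, 15 genes of the list did not pass, among them Prm2, Tnp2 and Spem1 at -3.09, -2.55 and -0.26. The Dhh-Cre arrays differed widely here, with summed list intensities of 2069 and 15526. The genes named here other than Spem1 were chosen after their values were seen, so no split of the list by stage is read.

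Markers of somatic cells differed by list beside the Tssk genes. All 9 macrophage genes rose in each line (8 and 7 under housekeeping centring), with a summed intensity of 5134 and 5468 in the controls, 30539 to 34761 in Sf1-Cre and 24878 and 24965 in Dhh-Cre. Of 5 tested Leydig genes 4 and 3 rose, 2 and 2 under that centring (5656 and 6434 in controls, 19266 to 28473 in Sf1-Cre, 18208 and 22914 in Dhh-Cre). All 6 tested granulosa genes rose in each, but the control mean of only 1 of them reached the floor, so the others entered the test through the mutants and had to be higher there. Their list summed to 907 and 937 in controls, 6280 to 8393 in Sf1-Cre and 4724 and 5637 in Dhh-Cre, with Esr2 and Amh under the floor on all arrays. Of 11 tested Sertoli genes 8 rose and 3 fell in Sf1-Cre (21437.5 and 22010.2 in controls, 26028 to 28640.4 in Sf1-Cre), and 9 rose in Dhh-Cre (37962 and 39533), but under housekeeping centring these were 3 and 6, and 4 and 3. Their part in the Tssk values was not tested.

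The genes whose 8-array pattern was most like the mean of the 5 members were Slc35g3, Aqp7, Mbd3l1, Tmem247, Gzmn, St8sia3, Cep295nl, Proca1, Cylc2 and Arel1, with Pearson's r from 0.9983 to 0.9998 over 8 arrays. Of 13797 other tested genes, 314 had r of 0.99 or above, and since the arrays share their groups, r is given as a description. Aqp7, the aquaglyceroporin gene, gave 2162 and 1879.8 units in the controls, 5.71 and 15.2 in Dhh-Cre and 50.8, 31.1, 24.5 and 18.6 in Sf1-Cre. Cylc2, a gene of the sperm head cytoskeleton, gave 1512 and 1189 units, then 4.10 and 9.77, and then 30.4, 17.2, 14.6 and 13.9. For both genes the controls were highest. The Sf1-Cre arrays of Aqp7 were above the floor and its Dhh-Cre arrays under it, and Cylc2 was under it in both Dhh-Cre arrays and in Sf1-Cre replicates 3 and 4. Each member's own r with the mean of the other 4 was 0.992 for Tssk3, 0.987 for Tssk2, 0.976 for Tssk1, 0.948 for Tssk4 and 0.912 for Tssk6.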

How the data were processed

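Total RNA of whole testes was extracted with TRIzol and labelled with biotin, per the labels' protocols. The authors deposited 1 table of intensity values on a linear scale for 45101 probe sets and 8 arrays, made with GCRMA per the submitters' processing notes. No GCRMA version was given in the sources used here. About 11.4% to 11.5% of values are written in exponent notation in 6 arrays and 0 in Sf1-Cre replicates 3 and 4. Replicates are labelled biological.

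Log2 was taken. The 34958 probe sets with 1 gene symbol were named through Entrez identifiers (GRCm38.p6), and the probe set of highest mean stands for each gene. The 13802 genes with at least 2 arrays at log2 4 or above were fitted with limma 3.58.1 in R 4.3.3, as 3 group means over all 8 arrays, with adjusted p under 0.05 as passing. A fold against a mean under log2 4 is a lower bound. The fit was also run on simulated data with independent noise and few changed genes. Most genes passed in the real comparisons with control, so that run does not bear on these calls. The small number of arrays limits precision.

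Members and lists were chosen with earlier results of these data known. Genes named are the 5 members, Tssk5, all partner genes, up to 4 genes of lowest p in Sf1-Cre (3 for germ cell stages) and any opposite to its list, and the 10 most alike, passing over provisional symbols. Housekeeping centring subtracts the median of 13 such genes. These genes were not steady. Before centring, 11 passed as higher and 1 as lower in Sf1-Cre, and 10 and 1 in Dhh-Cre. After it, 3 passed as higher and 7 as lower in Sf1-Cre, and 4 and 7 in Dhh-Cre. With centring, the all-gene median is -1.03 rather than 0.34 in Sf1-Cre and -0.80 rather than 0.54 in Dhh-Cre. Over all genes, 2572 then passed as higher and 8530 as lower in Sf1-Cre, 2761 and 7524 in Dhh-Cre.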

Additional observations from a re-analysis of the deposited data

Results flagged for a closer look

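Tssk1 and Tssk4 stood out because their fall differed between the Cre lines in the test of the difference itself. The Sf1-Cre effect minus the Dhh-Cre effect was 2.54 for Tssk1 (limma adjusted p = 0.0149) and 2.94 for Tssk4 (limma adjusted p = 0.00796), with all 4 Sf1-Cre arrays above both Dhh-Cre arrays. Dhh-Cre replicate 1 was under the floor for both genes, and with values under log2 4 set to 4 the differences were 2.20 and 2.58. Over 21 alternatives the difference ran from 1.39 to 3.31 for Tssk1 (adjusted p 0.00775 to 0.128) and from 1.23 to 3.62 for Tssk4 (adjusted p 0.00284 to 0.0732). The arrays labelled Dhh-Cre did not show less Dmrt1 signal.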

How the results depend on the processing

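All 5 Tssk genes passed as lower in Sf1-Cre and in Dhh-Cre under each of 21 alternatives. These included quantile normalization, housekeeping centring, other filters, a floor at log2 4, other moderation and array weights. Further ones were the 2 groups alone, the mean of probe sets and leaving out arrays. For Sf1-Cre against control, the 2 groups alone and leaving out either Dhh-Cre array are the same fit, so not all are separate checks. Tssk6 was under the floor in all mutant arrays, so the main filter fixed its direction. Between the lines the result was less stable. 0 Tssk genes and 816 genes in all passed without the 3 arrays high in Spink8, which leaves 1 Dhh-Cre array, assumed to vary like the other groups; at an unadjusted p under 0.05 in limma these were 3 Tssk genes (Tssk1, Tssk4 and Tssk6) and 3098 genes. Leaving out 1 array at a time gave 1 to 3 Tssk genes and 1234 to 3717 genes; the lowest of each came without Dhh-Cre replicate 1, where the 1 gene was Tssk6. Without the 2 arrays that hold no values in exponent notation, an alternative chosen after seeing the data, 4 Tssk genes and 3735 genes in all passed. With values under log2 4 set to 4, Tssk6 differed by 0. Averaging all probe sets of a gene moved Tssk3 to -3.49 and Tssk4 to -2.41 in Sf1-Cre and to -3.96 and -3.64 in Dhh-Cre, since their other probe sets lie near or under the floor. Same-numbered arrays did not deviate together in every pair (r of deviations -0.19 to 0.38), so the numbers were not taken as pairs. With replicate numbers as a block (replicate block), 2 Tssk genes and 2967 genes passed between the lines, and no call of a member changed. Replicates 3 and 4 exist only in Sf1-Cre, so the block in effect leaves those arrays out. It gave the same changes as the fit without them (Tssk1 3.09 and Tssk2 2.49 between the lines), so it is not a separate check. The small number of arrays, and signals under log2 4 in the mutants, limit what can be read.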
